A study of Mus musculus with 18 samples.

Results

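The 10 genes described here, Fos, Fosb, Jun, Junb, Egr1, Atf3, Ier2, Nr4a1, Klf4 and Dusp1, are immediate early response genes. They were taken by symbol from the 51435 genes of the deposited tables, and each had 1 row in the table of counts and 1 in the table of TPM (a transcript level per unit of length, scaled within each library). RNA-seq of poly(A)-selected RNA had been made from the left ventricle (LV) of 9 WT and 9 WWP2Mut/Mut mice, 1 library per mouse. The WWP2Mut/Mut mice, labelled KO in the deposited annotation, are homozygous C57BL/6J mice made by CRISPR/Cas9 and compared with WT littermates. They carry a 4-bp deletion in coding exon 2 of Wwp2 in every tissue, a frame shift that is expected to remove the full-length and N-terminal isoforms and to spare the C-terminal isoform. The paper reports that the full-length and N-terminal proteins were lacking and that the C-terminal protein in the heart was unaffected. Both genotypes received angiotensin II (AngII), a peptide hormone that raises blood pressure, at 500 ng/kg/min for 28 days from 8 weeks of age. No saline-infused mouse was analysed here, so the values describe hearts under long AngII infusion, and their level before infusion is unknown.

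Immediate early genes are transcribed within minutes of a stimulus, without new protein synthesis, and their mRNAs are short-lived. In the heart they are known for their response to stretch, AngII and catecholamines. Fos and Fosb pair with Jun and Junb to form the AP-1 transcription factor, Atf3 is a stress-induced bZIP factor, Egr1, Nr4a1 and Klf4 are DNA-binding factors of other families, Ier2 is a nuclear protein, and Dusp1 is a phosphatase that inactivates MAP kinases.

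Promoter sequences are shown for 5 of the 10 genes, among them Klf4, the member that moved least with the others from heart to heart, as described further on. Whether promoter sequence bears on how the genes moved together was not tested. The RefSeq promoter table used here held 8 of the 10 genes, and Egr1 and Ier2 were not matched in it. Each sequence is the stretch of 250 bases before the RefSeq start site in GRCm38.p6, 5′ to 3′ on the strand of the gene, and capitals mark TGACG or its reverse complement CGTCA, the short half-site of the cAMP response element (CRE), and the full CRE, TGACGTCA.

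Fos, chr12:85473640-85473889, plus strand: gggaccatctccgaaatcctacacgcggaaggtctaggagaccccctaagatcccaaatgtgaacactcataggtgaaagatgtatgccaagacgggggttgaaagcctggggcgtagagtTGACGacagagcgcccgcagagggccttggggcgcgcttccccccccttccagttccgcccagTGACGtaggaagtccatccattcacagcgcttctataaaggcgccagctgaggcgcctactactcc
Junb, chr8:84978749-84978998, minus strand: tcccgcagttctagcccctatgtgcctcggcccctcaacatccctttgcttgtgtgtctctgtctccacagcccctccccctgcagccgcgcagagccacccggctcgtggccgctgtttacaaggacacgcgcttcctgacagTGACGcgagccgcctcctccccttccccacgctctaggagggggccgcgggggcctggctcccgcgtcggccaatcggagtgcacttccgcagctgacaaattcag
Nr4a1, chr15:101266596-101266845, plus strand: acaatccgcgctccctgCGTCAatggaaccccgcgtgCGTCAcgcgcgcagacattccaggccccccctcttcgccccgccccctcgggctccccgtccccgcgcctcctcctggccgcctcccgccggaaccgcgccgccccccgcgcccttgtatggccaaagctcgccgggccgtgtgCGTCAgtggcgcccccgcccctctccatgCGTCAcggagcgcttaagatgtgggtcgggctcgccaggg
Dusp1, chr17:26508473-26508722, minus strand: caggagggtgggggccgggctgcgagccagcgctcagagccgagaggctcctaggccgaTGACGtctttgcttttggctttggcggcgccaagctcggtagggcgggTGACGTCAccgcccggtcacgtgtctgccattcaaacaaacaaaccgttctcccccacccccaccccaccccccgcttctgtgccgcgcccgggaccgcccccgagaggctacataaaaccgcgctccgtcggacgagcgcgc
Klf4, chr4:55532476-55532725, minus strand: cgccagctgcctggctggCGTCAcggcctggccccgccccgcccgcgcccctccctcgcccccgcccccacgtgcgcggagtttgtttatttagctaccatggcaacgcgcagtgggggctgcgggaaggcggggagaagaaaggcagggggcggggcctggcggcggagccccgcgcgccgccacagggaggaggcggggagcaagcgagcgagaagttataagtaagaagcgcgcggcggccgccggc

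The half-site was found on either strand in 7 of the 8 promoters, all except that of Jun, and in 17.8% of the 32851 promoter stretches of the same length in the RefSeq table. Its match lay nearest to the start site in Atf3, 3 bases upstream, and at 36 bases in Nr4a1, 62 bases in Fos, 102 bases in Junb and 228 bases in Klf4. The full CRE occurred only in Dusp1, 136 bases upstream, against 1.55% of all stretches, and there the half-site counts overlap it. The AP-1 letters TGACTCA were in none of the 8, against 4.46% of all stretches, and the CArG box, the binding motif of serum response factor, was in none, against 1.47%. These are matches of letters in a short window, and no binding was measured.

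Library totals ran from 24566994 to 37451087 expected counts. The targeted gene Wwp2 was lower in every WWP2Mut/Mut mouse than in any WT mouse (3.83 to 6.01 TPM in WT and 1.19 to 3.00 TPM in WWP2Mut/Mut), and its log2 fold change was -1.40 (SE 0.16, adjusted p = 0.00113, edgeR). The samples carried the defining cardiomyocyte markers, with 38043.5 to 50909 TPM summed over 8 genes per mouse. The recorded RNA concentration of WT 43-3 was far below those of the other mice, at 1.68 ng/µl against 88.6 to 320.9 ng/µl, and enters the count test as a covariate.

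The level of the genes per transcript length spanned about 2 orders of magnitude. Averaged over 18 mice, Dusp1 was highest (21.7 ± 7.38 TPM, SD), followed by Jun (15.6 ± 4.88), Klf4 (11.99 ± 4.39), Ier2 (11.3 ± 2.80), Nr4a1 (10.6 ± 8.004), Junb (8.74 ± 2.14), Atf3 (8.21 ± 4.65), Egr1 (5.52 ± 3.81), Fos (2.13 ± 1.90) and Fosb (0.198 ± 0.209). Of the 9 steps between neighbours in this order, 5 passed a sign-flip permutation test of the paired log2(TPM + 1) differences over mice, adjusted over the 9 steps. These were Dusp1 over Jun (adjusted permutation p = 0.000540), Jun over Klf4 (0.00160), Atf3 over Egr1 (0.00160), Egr1 over Fos (4.50e-05) and Fos over Fosb (4.50e-05), and the last pair of steps held in all 18 mice. Klf4, Ier2, Nr4a1, Junb and Atf3 could not be placed in order, with adjusted permutation p between 0.115 and 0.976 for their neighbouring steps. Fosb was at or below 1 TPM in every heart.

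**Figure D1:**
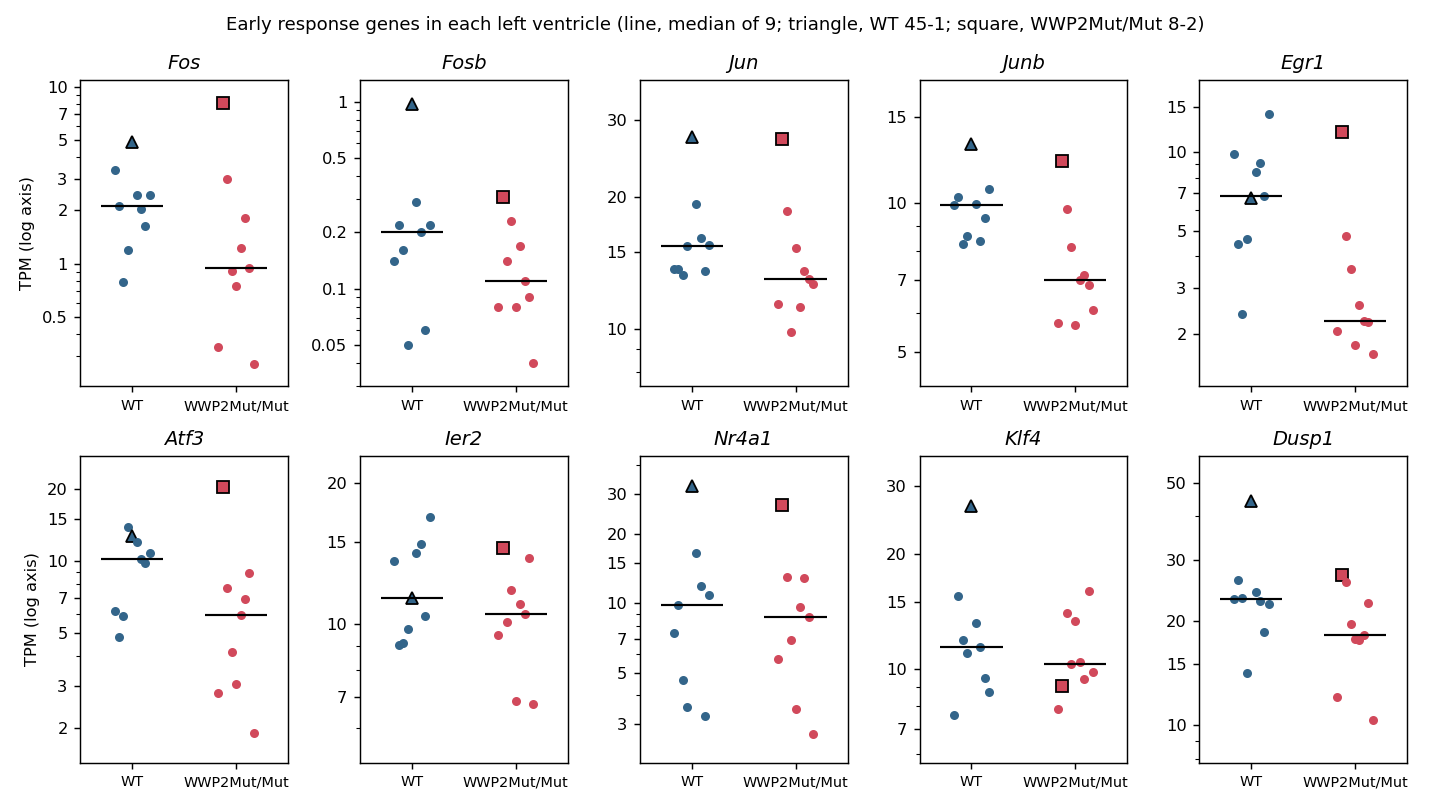
TPM of each gene in every left ventricle, WT in blue and WWP2Mut/Mut in red, on log axes with a different range per panel; the line is the median of 9 mice, the triangle WT 45-1 and the square WWP2Mut/Mut 8-2. The genotypes overlap in every panel, and WWP2Mut/Mut 8-2 is the highest mouse of its genotype in each panel except Klf4.

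The first comparison asked whether these genes differ by genotype after AngII infusion. None of the 10 was called by edgeR's quasi-likelihood test on expected counts with lane and RNA concentration as covariates (adjusted p of 1 for each), where 1 of 24804 genes, Wwp2 itself, was called (0.00403%). At an unadjusted p below 0.05, 0 of 10 were lower in WWP2Mut/Mut, against 2.57% of all genes, and 0 were higher. DESeq2 also called none of the 10. The fitted level was lower in WWP2Mut/Mut for 8 of the 10, with a median log2 fold change of -0.11 against -0.01 over all genes tested.

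Among the AP-1 subunits, Fos (chromosome 12, 85473890 to 85477273 on GRCm38) had 0.79, 2.11 and 4.90 TPM in the lowest, median and highest WT mouse, and 0.27, 0.94 and 8.12 TPM in WWP2Mut/Mut mice. The highest heart of all was thus a WWP2Mut/Mut heart, 8-2, while 3 other WWP2Mut/Mut hearts lay below every WT heart. Its log2 fold change was -0.27 (SE 0.61, unadjusted p = 0.6701, edgeR). Fosb (chromosome 7, 19302696 to 19310051), at 6 to 132 counts per mouse, had 0.05, 0.20 and 0.97 TPM in WT and 0.04, 0.11 and 0.31 TPM in WWP2Mut/Mut, with a log2 fold change of -0.45 (SE 0.54). The WT maximum was WT 45-1, with 0.29 TPM in the next WT mouse.

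Jun (chromosome 4, 95049034 to 95052222), the AP-1 partner of Fos, had 13.3, 15.5 and 27.5 TPM in WT and 9.86, 12.99 and 27.2 TPM in WWP2Mut/Mut, and 5 WWP2Mut/Mut mice were below every WT mouse. The log2 fold change in the count test was -0.08 (SE 0.20). Junb (chromosome 8, 84974484 to 84978718) had 8.29, 9.92 and 13.2 TPM in WT and 5.68, 7.01 and 12.2 TPM in WWP2Mut/Mut. WWP2Mut/Mut 8-2 and 22-3 were the only mice of their genotype inside the WT range, and the other 7 lay below it. The mean TPM of Junb was 9.86 ± 1.52 (SD, n = 9) in WT and 7.62 ± 2.14 in WWP2Mut/Mut (two-sided exact permutation test, p = 0.0218, not adjusted), and the count test with covariates gave a log2 fold change of -0.18 (SE 0.17, unadjusted p = 0.300, edgeR).

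Egr1 (chromosome 18, 34859823 to 34864984), a zinc-finger factor induced by growth factors and stretch, had the largest log2 fold change in size of the 10, whereas the largest difference in mean TPM was that of Dusp1 (5.34 TPM, against 3.73 TPM for Egr1). It had 2.39, 6.82 and 14.1 TPM in WT and 1.67, 2.24 and 12.03 TPM in WWP2Mut/Mut. In WWP2Mut/Mut, 8 of the 9 hearts were between 1.67 and 4.75 TPM, and the remaining heart was 8-2, so the ranges overlapped. The mean was 7.38 ± 3.50 TPM (SD, n = 9) in WT and 3.66 ± 3.29 in WWP2Mut/Mut (two-sided exact permutation test, p = 0.0342, not adjusted). The log2 fold change in the count test was -0.87 (SE 0.42, unadjusted p = 0.0523, adjusted p = 1, edgeR). Mean TPM of Egr1 within lanes was lower in WWP2Mut/Mut in lane 1 (9.475 in WT, 2.195 in WWP2Mut/Mut), lane 2 (4.525 and 2.04) and lane 4 (8.99 and 4.15). It was higher in lane 3 (5.73 and 7.04), the lane of WWP2Mut/Mut 8-2. Junb was lower in WWP2Mut/Mut in all 4 lanes, by the least in lane 3 (8.97 and 8.95).

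The exact permutation test of mean TPM had an unadjusted p below 0.05 for Junb and Egr1 and for none of the other 8, whose p ran from 0.121 (Dusp1) to 0.758 (Nr4a1). With each of 18 mice left out in turn, p of Junb stayed below 0.05 (0.00123 to 0.0428), whereas p of Egr1 was not below 0.05 in 10 of 18 omissions (0.00156 to 0.0656, exact permutation tests). Both were lower in WWP2Mut/Mut, which on this scale held for 4.12% of the 24804 genes, and no adjusted p was computed. The TPM scale itself leaned the same way: 75.4% of all genes had a lower mean TPM in WWP2Mut/Mut, as did all 10 of these genes, and only 0.318% of genes were higher at an unadjusted p below 0.05. Deposited TPM summed to 671770 to 826381 per mouse and not to its nominal total. After rescaling each mouse to that total, p was 0.0429 for Junb and 0.0367 for Egr1 in the same exact permutation test. The values of WT and WWP2Mut/Mut overlapped for all 10 genes, and across the table they failed to overlap for 0.00403% of genes.

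Among the remaining genes, Atf3 (chromosome 1, 191170296 to 191218039) had 4.79, 10.2 and 13.8 TPM in WT and 1.90, 5.90 and 20.3 TPM in WWP2Mut/Mut, where 4 WWP2Mut/Mut hearts were below every WT heart and 8-2 was above every WT heart. Its log2 fold change was -0.14 (SE 0.37). Nr4a1 (chromosome 15, 101254269 to 101274795), an orphan nuclear receptor, had 3.23, 9.84 and 32.4 TPM in WT and 2.70, 8.71 and 26.8 TPM in WWP2Mut/Mut. The highest Nr4a1 value in each genotype belonged to the same mice that stood out for Fos, WT 45-1 and WWP2Mut/Mut 8-2, and the log2 fold change was 0.07 (SE 0.51).

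Dusp1 (chromosome 17, 26505590 to 26562128) had 14.1, 23.1 and 44.2 TPM in WT and 10.4, 18.2 and 27.2 TPM in WWP2Mut/Mut, with a log2 fold change of -0.09 (SE 0.22). Klf4 (chromosome 4, 55527143 to 55532466), a zinc-finger factor of vascular and inflammatory cells, had 7.61, 11.4 and 26.6 TPM in WT and 7.86, 10.3 and 15.98 TPM in WWP2Mut/Mut, with a log2 fold change of -0.03 (SE 0.17). Ier2 (chromosome 8, 84661331 to 84662852) had 9.04, 11.4 and 16.9 TPM in WT and 6.76, 10.5 and 14.5 TPM in WWP2Mut/Mut, with a log2 fold change of 0.08 (SE 0.24). The WT range covered most WWP2Mut/Mut hearts for all 3 genes. In whole ventricle, fewer cells of a type and less RNA per cell cannot be told apart for any of these values.

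The direction of the set turned without 1 WT mouse. Without WT 45-1, the fitted level was lower in WWP2Mut/Mut for 2 of the 10 genes (Junb and Egr1), and the median log2 fold change was 0.08. Without WWP2Mut/Mut 8-2, all 10 were lower, with a median of -0.28, and Egr1 had a log2 fold change of -1.26 (SE 0.32, unadjusted p = 0.000935, adjusted p = 1, edgeR). Without both mice, chosen after seeing the data, 7 of the 10 were lower, Egr1 fell by 1.17 (SE 0.36, unadjusted p = 0.00480, adjusted p = 1, edgeR), and no gene of the set was called. Over all 31 alternative fits, the log2 fold change stayed negative for Egr1 (from -1.26 to -0.68) and Junb (from -0.34 to -0.06).

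**Figure D2:**
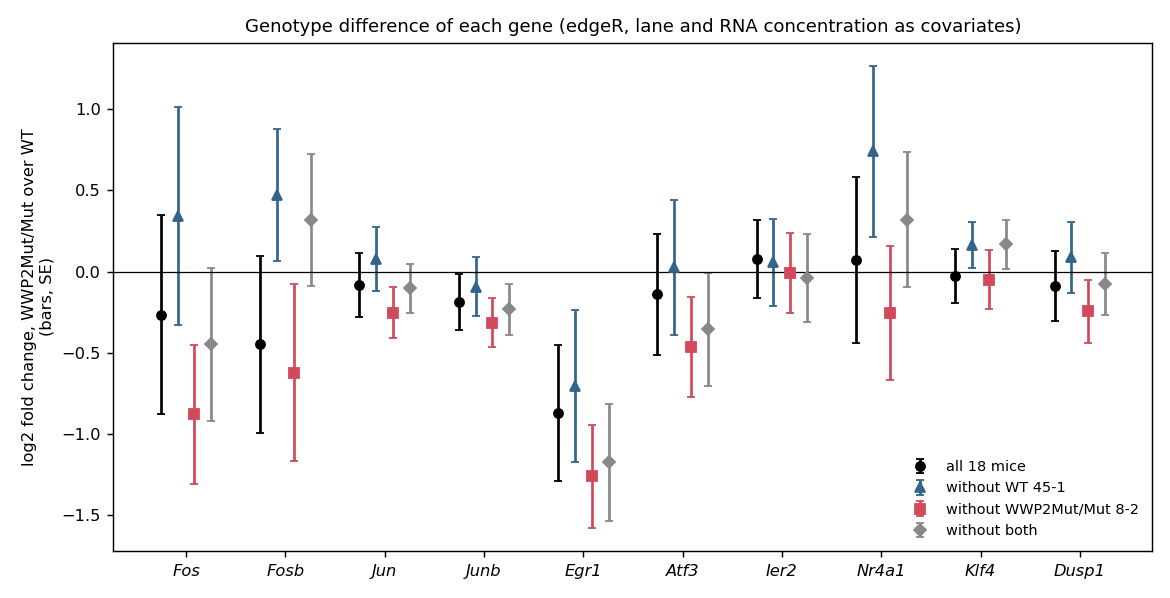
Log2 fold change of WWP2Mut/Mut over WT from edgeR, with its standard error as bars, for all 18 mice and without the mice named in the key. Removing WT 45-1 moves 6 genes from below 0 to above 0, and Egr1 stays below 0 in each fit, from -0.70 to -1.26.

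The genes differed in how much they varied between hearts. The biological coefficient of variation in the edgeR fit, which is the spread left after counting noise, genotype, lane and RNA concentration, was 0.775 for Fos, 0.708 for Fosb, 0.659 for Nr4a1, 0.520 for Egr1 and 0.476 for Atf3, against a median of 0.200 over expressed genes. These 5 genes were above 95.6% to 98.2% of expressed genes, although on log2(TPM + 1) the SD of Fosb, a gene of low level, was above only 25.9%. Ier2 (0.318), Dusp1 (0.298), Jun (0.268), Junb (0.238) and Klf4 (0.229) were above 63.9% to 87.0%. The spread did not separate the genotypes at this number of mice: for the mean absolute deviation from the genotype median of log2(TPM + 1), p ran from 0.173 (Atf3, 0.371 in WT and 0.666 in WWP2Mut/Mut) to 0.977 (Ier2) in exact permutation tests.

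The same hearts were high or low for most of the genes. As a summary, the values of log2(TPM + 1) were standardized per gene over 18 mice and averaged per mouse into a mean z-score. WT 45-1 had the highest mean z-score (1.79) with all 10 genes above their own mean, and WWP2Mut/Mut 8-2 was second (1.29) with 9 of 10, the exception being Klf4. WT 45-3 (0.74) and WT 94-2 (0.56) followed. At the other end, WWP2Mut/Mut 62-1 (-1.36) and 1-2 (-1.11) had no gene above its mean, and WWP2Mut/Mut 33-1 (-0.86) had 2. The 5 lowest hearts were all WWP2Mut/Mut, while the upper ranks held both genotypes.

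**Figure D3:**
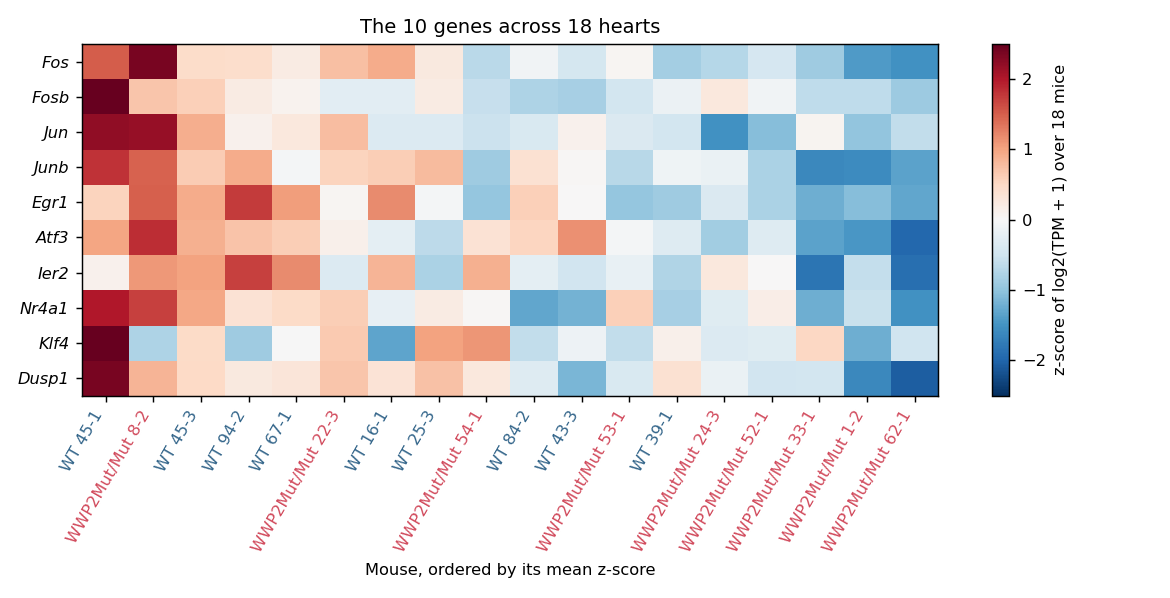
Standardized log2(TPM + 1) of the 10 genes (rows) in 18 hearts (columns, ordered by mean z-score; WT names in blue, WWP2Mut/Mut names in red). The first columns, WT 45-1 and WWP2Mut/Mut 8-2, are high in nearly all rows, and Klf4 is low in WWP2Mut/Mut 8-2.

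Of the 45 pairs of genes, 43 had a positive Pearson's r of log2(TPM + 1) over 18 mice. The mean r was 0.58, from -0.11 (Ier2 and Klf4) to 0.88 (Fos and Junb), and 33 pairs exceeded 0.5. Over all pairs of 12405 expressed genes (TPM above 1 in at least 2 mice) the mean r was 0.23 on this scale. With TMM-normalized log2 CPM it was 0.00, whereas the mean of the 45 pairs was 0.60. With lane and RNA concentration removed the mean of the 45 pairs was 0.63, and with genotype removed 0.56. Without WT 45-1 and WWP2Mut/Mut 8-2 it was 0.48, and 43 of 45 pairs were positive. Within genotypes the mean was 0.49 in the 9 WT mice and 0.62 in the 9 WWP2Mut/Mut mice, where all expressed genes gave 0.26 and 0.13.

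**Figure D4:**
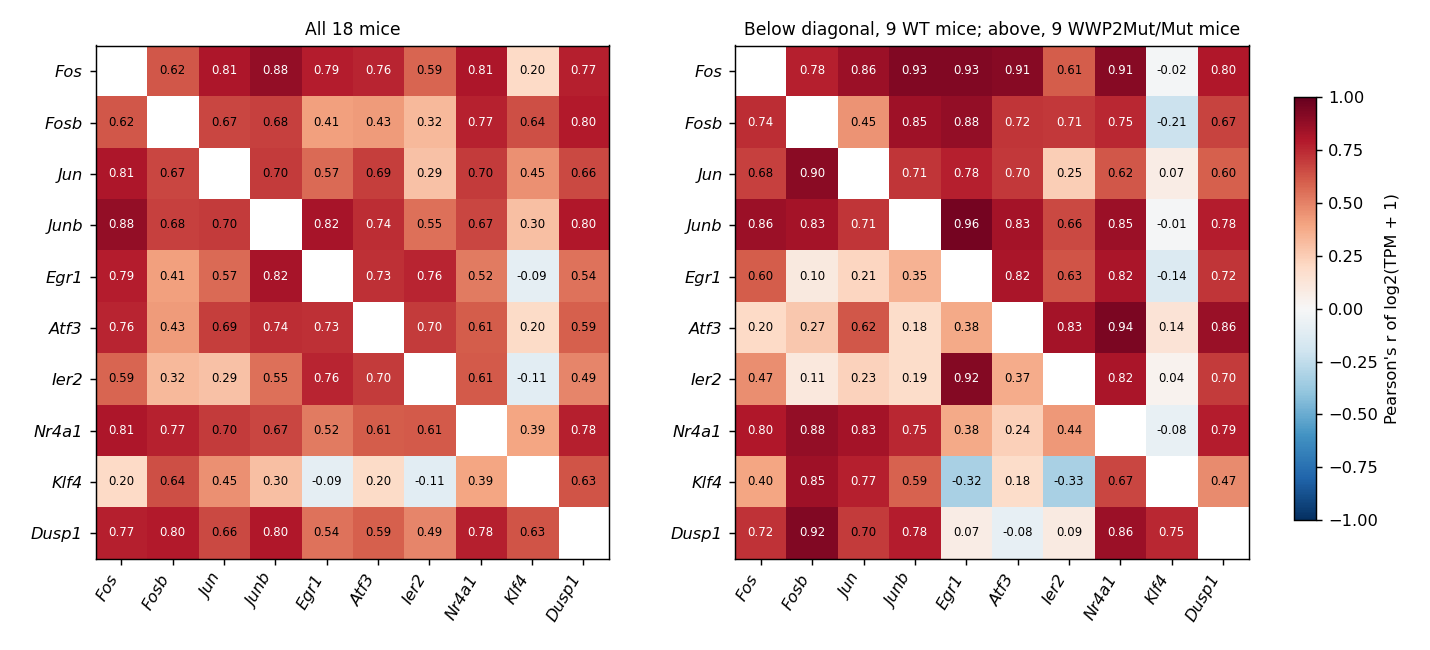
Pearson's r of log2(TPM + 1) for each pair of genes, on the left over 18 mice and on the right within WT (below the diagonal) and WWP2Mut/Mut (above it), on 1 colour scale from -1 to 1. Fos, Junb, Nr4a1 and Dusp1 have r between 0.72 and 0.93 with each other in both genotypes, and the values of Klf4 in WWP2Mut/Mut lie between -0.21 (Fosb) and 0.47 (Dusp1).

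Each gene was tested against every expressed gene by permuting the mice, with adjustment over all 124041 relations. A pair of members was tested from each of its genes, with separate resamples, and counts of pairs take the gene that comes first in the list of 10. Pairs with Fosb, which did not pass the expression filter, were tested from Fosb alone. Counted so, 1 of the 45 pairs was called in the positive direction, Fosb and Nr4a1 (r = 0.77, permutation p = 1e-05, adjusted p = 0.0477), where 0.021% of all relations were. Fos and Junb lay on the threshold, called when tested from Junb (permutation p = 1e-05, adjusted p = 0.0477) and not when tested from Fos (permutation p = 2e-05, adjusted p = 0.0636). A p of 1e-05 is the smallest that 100000 resamples can give, so the number of resamples limits the count. With 1000000 resamples, chosen after seeing the data, Fos and Junb were called from either side (r = 0.88, permutation p = 5e-06, adjusted p = 0.0270), where 0.0242% of all relations were. With TMM-normalized log2 CPM, 17 of the 45 pairs were called against 3.66% of all relations. With lane and RNA concentration removed, 10 were called against 0.302% of all relations, and with Spearman's rho no relation of any kind was. Leaving out any 1 mouse also gave 0 called pairs, except without WWP2Mut/Mut 53-1 (2 pairs) and 54-1 (3 pairs). These stood against 0.0210% and 0.0250% of all relations. In every other omission except that of WWP2Mut/Mut 8-2, no relation of any kind was called. Those counts of 0 therefore cannot tell lost covariation from too few resamples. The mean r of the 45 pairs stayed between 0.52 and 0.60 with any 1 mouse left out. The r of Fosb and Nr4a1 was 0.73 without WT 45-1 and WWP2Mut/Mut 8-2.

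The highest r of the 45 pairs was that of Fos and Junb, followed by Junb and Egr1, Fos and Jun, Fos and Nr4a1, Junb and Dusp1 (0.80) and Fosb and Dusp1 (0.80). Fos and Junb had r = 0.88 (Spearman's rho 0.88, permutation p = 2e-05 for r), and r was 0.83 without WT 45-1 and WWP2Mut/Mut 8-2, the mice farthest from the median of Fos. It was 0.86 within WT and 0.93 within WWP2Mut/Mut. Junb and Egr1 had r = 0.82 (rho 0.85, permutation p = 4e-05), and 0.85 without WT 45-1 and WWP2Mut/Mut 33-1, the mice farthest from the median of Junb, but 0.35 within WT and 0.96 within WWP2Mut/Mut. Fos and Egr1 had r = 0.79 (rho 0.83, permutation p = 7e-05), and the value was the same without the 2 farthest mice at 0.79. Fos and Nr4a1 had r = 0.81 (rho 0.81, permutation p = 5e-05), falling to 0.67. None of these p is adjusted, and the adjusted p of these 4 pairs ran from 0.0636 to 0.0944.

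Other relations leaned on the highest hearts. Fos and Jun had r = 0.81, and 0.59 without the 2 farthest mice. Fosb and Jun fell from 0.67 to 0.19, and Fosb and Klf4 from 0.64 to 0.20, when WT 45-1 and WWP2Mut/Mut 8-2 were left out. The r of 25 pairs was still above 0.5 without the 2 mice farthest from the median of the first gene.

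**Figure D5:**
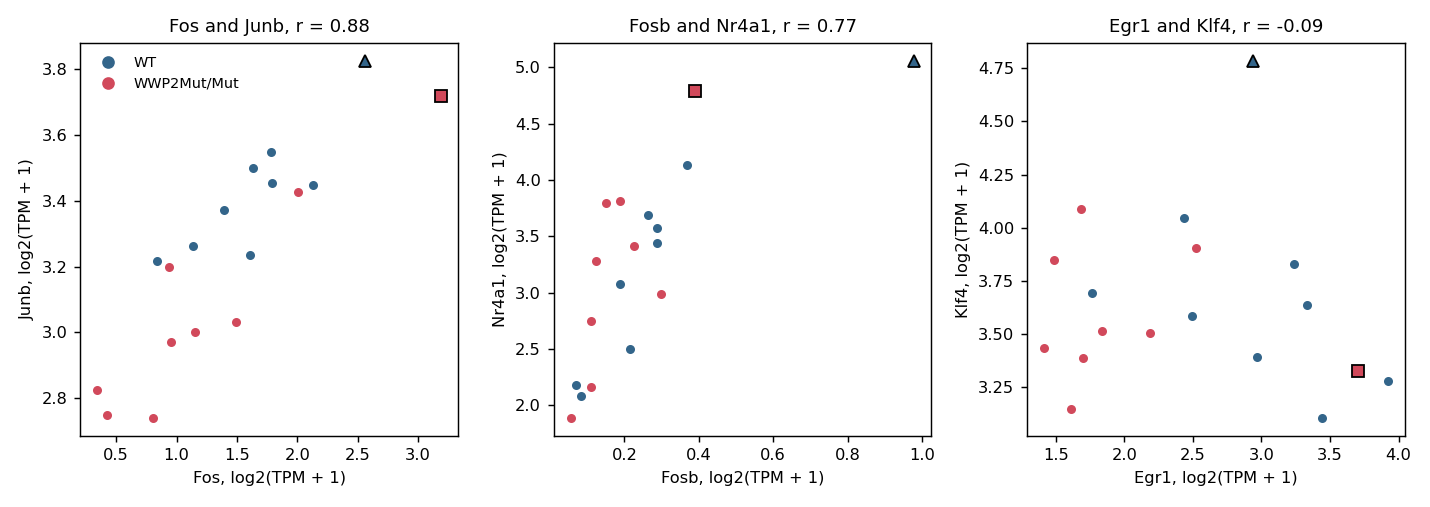
Log2(TPM + 1) of 3 pairs of genes in each heart, WT in blue and WWP2Mut/Mut in red, with WT 45-1 as a triangle and WWP2Mut/Mut 8-2 as a square. Fos and Junb (r = 0.88) rise together over the whole range, Fosb and Nr4a1 (r = 0.77) reach their highest values in WT 45-1, and Egr1 and Klf4 (r = -0.09) show no common order.

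Klf4 stood apart from the others, with a mean r of 0.29 with the other 9 genes, against 0.66 for the pairs without Klf4. Its r with the mean z-score of the 10 genes was 0.14 within WWP2Mut/Mut. Within WT that r was 0.68, above those of Egr1 (0.43), Atf3 (0.42) and Ier2 (0.42), and the difference between genotypes was not tested. It was nearest to Fosb (r = 0.64) and Dusp1 (0.63), and near 0 or negative with Fos (0.20), Atf3 (0.20), Egr1 (-0.09) and Ier2 (-0.11). No member was in the 1% of 12404 genes most related to Klf4, and the nearest of those ranked was Dusp1 at rank 644 (Fosb, below the expression filter, has no rank). In contrast, the gene most related to Junb was Fos and the gene most related to Dusp1 was Junb, each out of 12404 expressed genes, and 7 of the 8 other expressed members were in the 1% of genes most related to Fos. These ranks are a description, since the genes share libraries.

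The relations between the genes were also compared between genotypes. The difference in r was tested for each of the 45 pairs by exact permutation of mice on values centred within genotype, and 5 pairs had an unadjusted p below 0.05 and none an adjusted p below 0.05. Junb and Egr1 had r = 0.35 in WT and 0.96 in WWP2Mut/Mut (exact permutation p = 0.00378, adjusted over 45 pairs 0.170), and Fosb and Egr1 had 0.10 and 0.88 (exact permutation p = 0.00889, adjusted 0.200). Atf3 with Nr4a1 (0.24 and 0.94) and with Dusp1 (-0.08 and 0.86) were likewise higher in WWP2Mut/Mut, with exact permutation p of 0.0251 and 0.0268. Fosb and Klf4 had 0.85 in WT and -0.21 in WWP2Mut/Mut (exact permutation p = 0.0499). Without WWP2Mut/Mut 8-2, Junb and Egr1 had r = 0.95 in WWP2Mut/Mut and passed adjustment narrowly (exact permutation p = 0.00111, adjusted 0.04998), while with lane and RNA concentration removed 1 pair had an unadjusted p below 0.05 and none was called.

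The expressed genes outside the set whose levels followed the mean z-score most closely were Btg2 (r = 0.90), an antiproliferative early response gene, Atf4 (0.85), the bZIP factor of the integrated stress response, Ybx1 (0.83), Otud1 (0.82), Apold1 (0.82), an early response gene of endothelium, Phlda1 (0.80), Slc25a14 (0.78), Spry4 (0.78), a feedback inhibitor of receptor tyrosine kinase signaling, Irs2 (0.77) and Zfp36 (0.77), which destabilizes AU-rich mRNAs. The likeness is Pearson's r of log2(TPM + 1) over 18 mice, with no test. It was 0.90 for Btg2, 0.70 for Atf4, 0.63 for Ybx1 and 0.58 for Irs2 on TMM-normalized log2 CPM. The rest of these genes had 0.73 (Zfp36) to 0.85 (Apold1) there. Btg2 ran from 7.17 to 47.85 TPM and was related to the z-score both within WT (r = 0.83) and within WWP2Mut/Mut (0.94), and r was 0.89 without WT 45-1 and WWP2Mut/Mut 8-2. Zfp36 and Irs2 fell to 0.46 without these mice. The 5 expressed genes at the opposite end were Krt10 (-0.64), Gm14399 (-0.61), Trim12c (-0.60), Gm13268 (-0.58) and Gm24336 (-0.57). On TMM-normalized log2 CPM, r was -0.15 for Krt10, -0.16 for Trim12c and -0.31 for Gm13268, against -0.75 for Gm14399 and -0.56 for Gm24336, a gene of 0.325 TPM on average.

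Further genes of the pathway were taken from written lists. Of 30 other early response genes tested, 0 were called, 3 had an unadjusted p below 0.05 and were lower in WWP2Mut/Mut (2.57% of all genes were), and none was higher. The 3 were Ccn1, a matricellular early gene (29.8 ± 8.59 TPM in WT and 17.5 ± 4.603 in WWP2Mut/Mut, SD, log2 fold change -0.64, SE 0.17, unadjusted p = 0.00152, edgeR), Myc (-0.54, SE 0.19, unadjusted p = 0.0100) and Ptgs2 (-0.76, SE 0.27, unadjusted p = 0.0113), which encodes an inducible cyclooxygenase and was below 1 TPM. The most abundant of this list were Rhob (53.8 TPM), Mcl1 (40.1) and Ccn1 (23.7), averaged over 18 mice. The median log2 fold change of the list was -0.06 against -0.01 over all genes. Its median r with the mean z-score was 0.29, with 8 of 28 expressed genes above 0.5, where the median over all expressed genes was 0.12 and 2.85% exceeded 0.5. Without WT 45-1 and WWP2Mut/Mut 8-2, of those 8 genes Btg2 (0.89), Ier5 (0.58) and Plk3 (0.54) remained above 0.5, and Zfp36 (0.46), Sik1 (0.21), Cebpd (0.21), Arc (0.21) and Csrnp1 (0.02) did not.

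Among relatives of the members, of 16 further AP-1 and ATF genes, 0 had an unadjusted p below 0.05 for genotype, and 3 of 15 expressed exceeded r = 0.5 with the z-score. Without WT 45-1 and WWP2Mut/Mut 8-2, Atf4 stayed there (0.82), whereas Jund fell to 0.37 and Fosl2 from 0.54 to 0.27. The most abundant were Atf4 (50.9 TPM), Jund (32.6, r = 0.54) and Atf5 (26.0, r = 0.31). Of 11 EGR, NR4A and KLF relatives tested, 1 had an unadjusted p below 0.05, Egr3 (log2 fold change -0.91, SE 0.43, unadjusted p = 0.0460, edgeR), at 0.504 ± 0.278 TPM in WT and 0.224 ± 0.171 in WWP2Mut/Mut (SD). Klf2 (27.4 TPM), a shear-responsive factor, had r = 0.65 with the z-score, and 3 of 9 expressed relatives exceeded 0.5, the others being Egr2 (0.70) and Nr4a3 (0.53). These became 0.55 (Klf2), 0.67 (Egr2) and 0.36 (Nr4a3) without WT 45-1 and WWP2Mut/Mut 8-2. Egr2 (0.497 TPM) and Nr4a3 (0.926 TPM) were below 1 TPM on average. Klf15 (13.6 TPM) had r = 0.06 and Klf9 (10.3 TPM) r = -0.09.

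The lists of phosphatases, stress genes and upstream genes showed no call either. Among 10 further dual-specificity phosphatases, Dusp6, which inactivates ERK, had a log2 fold change of -0.29 (SE 0.12, unadjusted p = 0.0318, edgeR), and among 10 heat shock and stress genes Dnajb1 had 0.59 (SE 0.23, unadjusted p = 0.0191). None of 14 SRF, TCF and CREB factors and none of 18 MAP kinase genes had an unadjusted p below 0.05. The median r of these factors and kinases with the mean z-score was 0.12 and 0.09, against 0.12 for all expressed genes, on the TPM scale, and -0.10 and -0.28, against -0.02, on TMM-normalized log2 CPM.

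Markers of other tissue and RNA measures were set beside the z-score. The sum of 6 adipocyte markers had r = 0.72 with it, and was highest in WT 45-1 (22.1 TPM) and WWP2Mut/Mut 8-2 (11.1 TPM), against 0.05 to 4.99 TPM in the other 16 hearts. 4 of these 6 markers were at 0 in at least 1 mouse. For Cfd, the adipocyte marker that passed the expression filter, r was 0.72, falling to 0.32 without these 2 hearts and to 0.52 on TMM-normalized log2 CPM. The sum of 6 atrial markers had r = 0.39 and was highest in WWP2Mut/Mut 8-2 (1186 TPM), with 379 to 1116 TPM in WT and 319 to 1186 TPM in WWP2Mut/Mut. Most of this sum was Nppa (680 TPM on average, r = -0.11). The other expressed atrial markers followed the z-score more closely, with r of 0.61 for Sln, 0.56 for Myl4, 0.51 for Myl7 and 0.49 for Dkk3, and with 0.90 to 0.93 within WWP2Mut/Mut and 0.22 to 0.41 within WT for Sln, Myl4 and Myl7. On TMM-normalized log2 CPM, r over 18 mice was 0.20 for Sln, 0.34 for Myl4 and 0.22 for Myl7. Without WT 45-1 and WWP2Mut/Mut 8-2, r on the TPM scale was 0.07 for Sln, 0.13 for Myl4, 0.08 for Myl7 and -0.04 for Dkk3. The sum of 8 liver markers had r = 0.29 and was highest in WT 45-1 (328 TPM), all 8 genes were lower in WWP2Mut/Mut at an unadjusted p below 0.05 (edgeR, none called; the sum itself had p = 0.219 in an exact permutation test), and the sum had 1.44 to 328 TPM in WT and 2.89 to 58.6 TPM in WWP2Mut/Mut. For fibroblast, endothelial, immune, erythrocyte, smooth muscle and cardiomyocyte markers r lay between -0.27 and 0.22. The cardiomyocyte sum was itself lower in WWP2Mut/Mut on the TPM scale, with a median of 43726 TPM against 47260.6 TPM in WT (two-sided exact permutation test on the log2 scale, p = 0.0362, not adjusted). In the count test, 4 of its 8 genes were lower, with a median log2 fold change of -0.01, as over all genes. The part of these tissues in the variation of the early genes was not tested.

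RNA concentration had r = -0.27 with the mean z-score, and gene body coverage, library total and the absorbance ratios had r between -0.05 and 0.10. Within genotypes, RNA concentration had opposite signs for several genes: r in WT and in WWP2Mut/Mut was 0.69 and -0.43 for Fos, 0.65 and -0.41 for Junb, 0.67 and -0.58 for Nr4a1, and 0.79 and -0.58 for Dusp1. These are descriptions over 9 mice each, and the WT values include WT 43-3 with its low concentration. The recorded A260/280 of WT 45-3, 214, was left out because it lay far from those of all other mice, so relations with that ratio rest on 17 mice. Of 50 relations of single genes with these 5 measures, 0 passed adjustment. Atf3 with RNA concentration (r = -0.56, Spearman's rho -0.38, permutation p = 0.0166, adjusted over 50 relations 0.652) weakened to -0.24 without WT 43-3 and WWP2Mut/Mut 62-1, whose concentrations were farthest from the median. Ier2 with gene body coverage (r = 0.52, rho 0.51, permutation p = 0.0261, adjusted 0.652) was 0.55 without WT 16-1 and WWP2Mut/Mut 52-1, the mice with the farthest coverage. With TMM-normalized log2 CPM this relation passed adjustment (r = 0.76, rho 0.72, 0.75 without the same mice, permutation p = 0.000490, adjusted over 50 relations 0.0245).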

How the data were processed

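RNA-seq libraries from the left ventricle of 18 AngII-infused mice were mapped to genotype by their labels. Per the submitters' processing notes, the authors used STAR 2.5.2b and RSEM 1.2.31. The authors deposited expected counts per gene (5.11% of values not whole, rounded here) and TPM per gene. The deposited annotation gives lane, RNA concentration, absorbance ratios and gene body coverage as a fraction, as the authors recorded them. All columns were mapped (0 left out).

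The main test of genotype was edgeR 4.0.16 (quasi-likelihood, TMM, lane and RNA concentration as covariates, genes with a total above 1 count, Benjamini-Hochberg) in R 4.3.3. DESeq2 1.42.0 and limma 3.58.1 on log2(TPM + 1) were alternatives. Single genes were tested on TPM by two-sided exact permutation over all 48620 divisions, and correlations on log2(TPM + 1) by permuting mice (100000 resamples, smallest p 1e-05) with scipy 1.17.1, pandas 2.3.3 and numpy 2.4.6 (Python 3.11.15; plots with matplotlib 3.10.9). Expressed genes had TPM above 1 in at least 2 mice. Scripts were tested on simulated data. Alternatives were normalization, count filter, covariates, pseudocount, TPM rescaling and each mouse left out. Named genes were the 10 members, Wwp2, the 10 other genes with the highest and the 5 with the lowest r with their mean z-score, up to 3 genes per pathway list with the smallest unadjusted p below 0.05, and the 3 most abundant of the AP-1, EGR and early response lists. Egr2, Nr4a3, Fosl2, Ier5, Plk3, Sik1, Cebpd, Arc, Csrnp1, Cfd and the atrial markers were named after their values were seen. The members and lists were chosen with earlier results of these data known. Each mouse is a separate animal. Library totals had a median of 31168997 expected counts, and counts of low genes such as Fosb limit their precision. Positions are from GENCODE M21 on GRCm38 and promoter sequences from RefSeq.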

Additional observations from a re-analysis of the deposited data

Results flagged for a closer look

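In 11 of the 20 sets of 9 mice examined (10 genes in each genotype), the highest mouse stood apart from the rest by a Dixon gap above the 95% critical value for 9 samples, where chance flags about 1 in 20 groups of normally distributed values. These gaps are on TPM. On log2(TPM + 1), 2 of the 11 were above that value, Fosb in WT 45-1 and Egr1 in WWP2Mut/Mut 8-2. Each was WT 45-1 or WWP2Mut/Mut 8-2. In WT 45-1, Fosb was 0.97 TPM with 0.29 TPM in the next mouse, Jun 27.5 TPM with 19.29, and Junb 13.19 TPM with 10.69. In the same heart, Nr4a1 was 32.38 TPM with 16.56 in the next mouse, Klf4 26.58 TPM with 15.52, and Dusp1 44.24 TPM with 26.24. In WWP2Mut/Mut 8-2, Fos was 8.12 TPM with 3.01 in the next mouse, Jun 27.16 TPM with 18.6, and Egr1 12.03 TPM with 4.75. Atf3 was 20.33 TPM with 8.89 in the next mouse, and Nr4a1 26.76 TPM with 13.08. The flags are not independent, since the genes share mice.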

How the results depend on the processing

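Under the 31 alternative fits, 0 of the 10 genes were called. With all mice, 8 to 10 were lower in WWP2Mut/Mut (10 without covariates and with gene body coverage added). With each mouse left out, 2 (without WT 45-1) to 10 were lower and 0 to 1 had an unadjusted p below 0.05. That count was 1, in place of 0, without a count filter, without covariates, with lane alone, with gene body coverage added, in the limma fits on TPM, and without WT 45-1 and WWP2Mut/Mut 8-2 together. Leaving out each mouse gave 1 to 4 genes with an unadjusted p below 0.05 in the exact test of TPM (4 without WWP2Mut/Mut 8-2), against 2. With all mice, 4.12% of all genes were lower in WWP2Mut/Mut at an unadjusted p below 0.05 in that test. The share with a mouse left out is not given here, so the counts from these omissions cannot be judged against all genes.

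Of the 45 pairs, 1 was called from the gene listed first, and Fos and Junb only from Junb. The count from the gene listed first was 0 with Spearman's rho, with log2(TPM + 0.1) and without the 2 highest mice. There, no relation of any kind was called. It was 2 with rescaled TPM (0.0701% of all relations called) or 1000000 resamples (0.0242%), and 3 with genotype removed (0.0234%). It was 10 with lane and RNA concentration removed (0.302%) and 17 with log2 CPM (3.66%). With each mouse left out it was 0 to 3 (0 except without WWP2Mut/Mut 53-1 or 54-1). Most of these omissions called no relation at all, a count that the number of resamples limits. The mean r moved from 0.58 to 0.48 without the 2 highest mice. Pairs with an unadjusted p below 0.05 for the genotype difference fell from 5 to 1 with lane and RNA concentration removed and to 2 without WT 45-1 (2 to 7 with each mouse left out), and 0 to 1 pair was called (1 without WWP2Mut/Mut 8-2). With log2 CPM, 1 relation to RNA measures was called, against 0.

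The log2 fold change of Ier2 turned to -0.0895 without covariates, -0.0178 with lane alone, -0.0608 with gene body coverage, -0.0789 in limma on log2(TPM + 1) with or without the TPM filter, -0.0844 on log2(TPM + 0.1) and -0.0396 without both high mice. That of Nr4a1 turned to -0.00919 without covariates and -0.0136 with gene body coverage. For Atf3 it was -0.336 without covariates, -0.407 with lane alone and -0.0207 with RNA concentration alone, against -0.14 with both. Without both high mice Fosb turned to 0.32 and Klf4 to 0.168. With 1 mouse left out the value ran from -0.879 to 0.343 for Fos, -0.763 to 0.473 for Fosb, -0.252 to 0.0793 for Jun, -0.464 to 0.0943 for Atf3 and -0.0072 to 0.202 for Ier2. It ran from -0.255 to 0.741 for Nr4a1, -0.0948 to 0.165 for Klf4 and -0.244 to 0.088 for Dusp1. Of these extremes, the positive ones of Fos, Fosb, Jun, Nr4a1, Klf4 and Dusp1 were reached without WT 45-1. The cause was not tested.

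No paired analysis was possible because mouse numbers are not shared between genotypes. The fits without both high mice, with 1000000 resamples and with the RNA concentration of WT 43-3 set to the median were chosen after seeing the data. With that concentration set to the median, the log2 fold change was -0.76 for Egr1, -0.14 for Junb and -0.13 for Fos. It was -0.02 for Jun, -0.01 for Dusp1 and 0.17 for Nr4a1. With 9 mice per genotype, even Egr1, with a log2 fold change of -0.87 and SE of 0.42, was not called.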
